A study of Mus musculus with 6 samples.

Results

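The collagen genes of the mouse were examined in RNA-Seq of inguinal white adipose tissue (iWAT), a subcutaneous fat depot, from mice that overexpress the homeobox transcription factor *Hlx* in fat. Members were the rows of the deposited gene table that carry a symbol made of Col, a number, a and a number, and 43 of 19445 loci met this rule, whatever their values. The *Hlx* transgenic (TG) mice carry a full-length *Hlx* cDNA behind the *aP2* (*Fabp4*) promoter, and the controls are wild-type (WT) littermates. The transgenic founders came from C57BL/6 x SJL hybrid embryos and were backcrossed to C57BL/6. The *aP2* promoter is active mainly in fat cells, whereas the RNA was taken from whole tissue, and nothing in the sources used here says how many transgenic lines the 3 animals represent. Each genotype has 3 mice, 12 weeks old and labelled as male, with 1 library per mouse. Values are FPKM, the reads of a gene relative to its transcript length and to the mapped reads of its library.

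Collagens are the main structural proteins of the extracellular matrix. Each molecule is a triple helix of alpha chains, and each alpha chain is the product of its own gene, so that a single collagen type can need the RNA of several genes. Fibril-forming types give tensile strength, type IV builds the sheet of basement membranes that surrounds every fat cell and capillary, type VI forms beaded filaments around cells and is abundant in fat, and fibril-associated collagens with interrupted helices (FACIT) decorate the surface of fibrils. Multiplexins sit in or next to basement membranes, and transmembrane collagens are anchored in the plasma membrane. In fat, fibroblasts and progenitor cells are a main source of fibril-forming collagens, and fat cells and vessel cells add basement membrane types.

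*Hlx* itself had 79.6 to 110 FPKM in the TG mice and 6.88 to 8.14 FPKM in the WT mice, so that all 6 libraries carried the level their genotype label calls for. The values do not part RNA of the transgene from that of the endogenous gene. The sex label does not match the values. *Xist*, which is transcribed from an inactive X chromosome, was at 20.2 to 33.6 FPKM in all 6 libraries, and all 28 Y-linked loci were at 0 in both genotypes. Read totals were not used here. Relative depth, taken from the most frequent ratio of values under 0.3 FPKM, was 0.714, 1.14 and 0.692 in TG 1, 2 and 3 and 0.943 and 1.41 in WT 1 and 2, with WT 3 as the reference, so low values are less precise in TG 1 and TG 3. Across all loci, 2174 of 11692 tested, or 18.6%, passed an adjusted p of 0.05 in limma, 1352 (11.6%) higher in TG and 822 (7.03%) lower, and the median log2 difference was -0.01.

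All 43 collagen loci together took 0.218%, 0.324% and 0.335% of the summed FPKM in TG 1, 2 and 3 and 0.354%, 0.314% and 0.378% in WT 1, 2 and 3. TG 1 had the lowest share of the 6 mice, and the genotypes overlapped. The fibril-forming class made up 49.0% to 59.0% of collagen FPKM in TG and 52.1% to 62.4% in WT. Type VI followed with 19.8% to 22.4% in TG and 15.1% to 19.5% in WT, which do not overlap, and type IV with 13.3% to 19.0% and 14.1% to 18.0%. The multiplexins took 4.36% to 6.75% in TG and 5.55% to 9.61% in WT. Shares of a total are not independent of each other, and the summed FPKM of the classes gave another picture. Type VI summed to 265 to 339 FPKM in TG and 257 to 343 FPKM in WT, which overlap. Type IV summed to 221 to 243 FPKM in TG and 259 to 284 FPKM in WT, and the multiplexins to 72.6 to 85.5 and 102 to 143 FPKM, both lower in all TG mice. Because these are bulk tissue values, fewer cells of a type and less RNA per cell cannot be told apart.

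**Figure D1:**
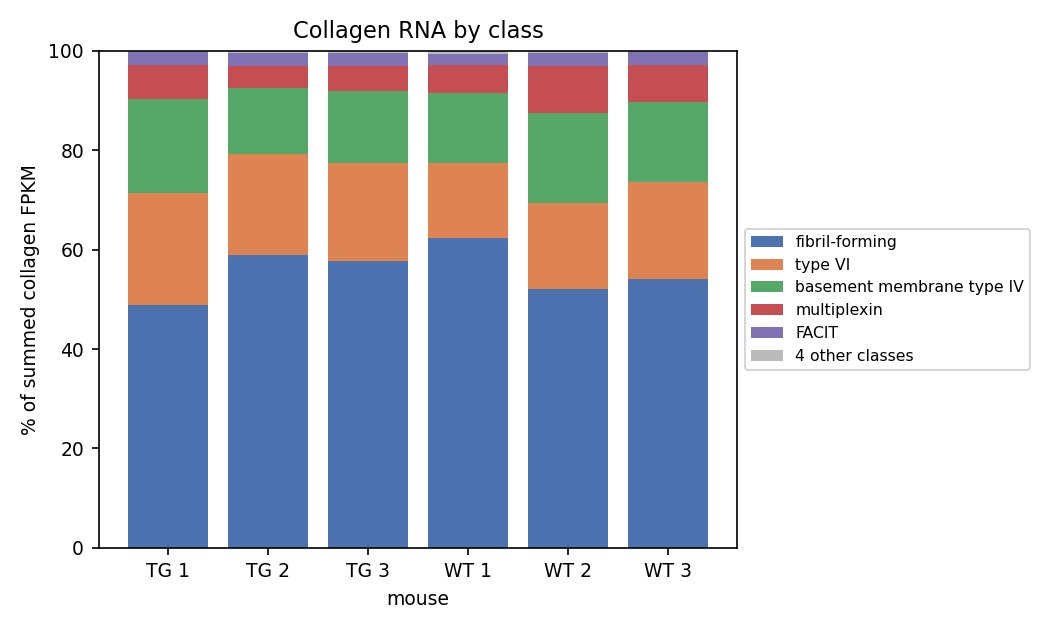
Percentage of the summed collagen FPKM of each mouse taken by each collagen class, 1 stacked bar per mouse. Fibril-forming collagens took 49.0% to 62.4% of the sum in the 6 mice, and type VI lay between 19.8% and 22.4% in the TG mice and between 15.1% and 19.5% in the WT mice.

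The mean FPKM was over 1 in at least 1 genotype at 25 of the 43 loci, and these were tested. Of the 25, 4 passed this filter through the TG mean alone (*Col4a5*, *Col9a2*, *Col12a1* and *Col17a1*) and 0 through the WT mean alone, so these 4 could hardly have come out lower in TG. *Col3a1* was the highest collagen in each of the 6 mice, ahead of *Col1a1*, *Col1a2*, *Col4a1*, *Col6a1*, *Col6a2* and *Col4a2*, which lay between 90.8 and 234 FPKM and overlapped one another.

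**Figure D2:**
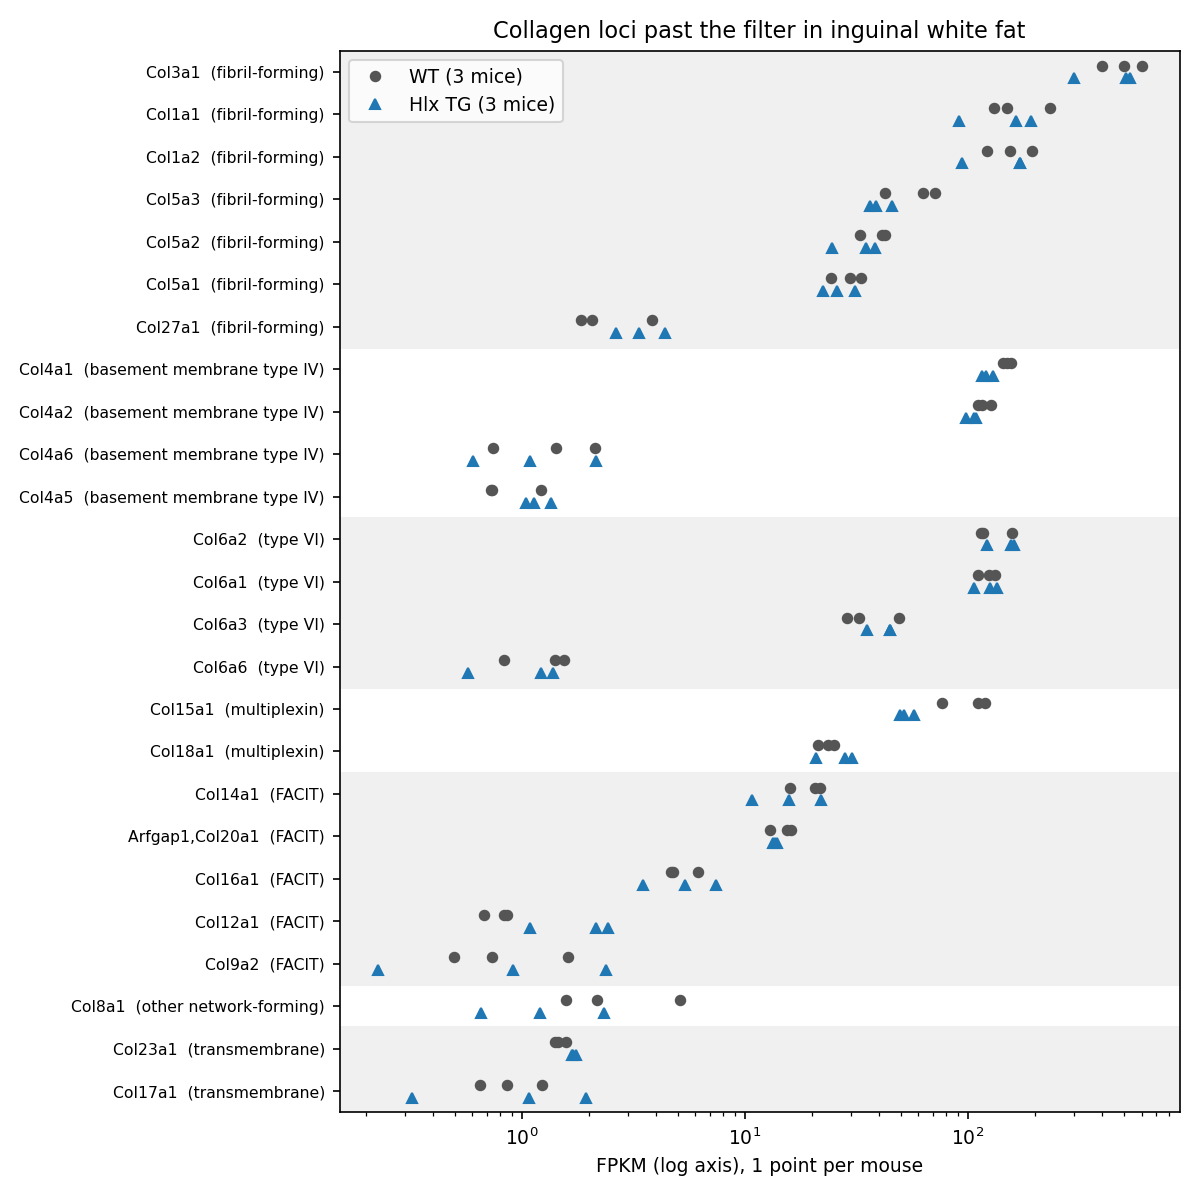
FPKM of the 25 tested collagen loci on a log axis, 1 point per mouse, ordered by class. WT mice are circles and TG mice are triangles. *Col3a1* is the highest locus with 297 to 600 FPKM, and *Col15a1* shows a gap between the genotypes, with 49.6 to 57.5 FPKM in TG and 76.8 to 119 FPKM in WT.

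At an adjusted p under 0.05, 1 of the 25 collagens fell in TG iWAT, *Col15a1*, and 0 rose (limma test of log2(FPKM + 1), p adjusted by Benjamini-Hochberg over all 11692 loci). This is 4% of the tested collagens, beside 18.6% of all tested loci. At an unadjusted p under 0.05 the same test had 1 higher (*Col12a1*) and 3 lower (*Col15a1*, *Col4a1* and *Col5a3*), 4 loci of 25 beside 36.2% of all loci. By value alone 10 were higher and 15 lower, with a median log2 difference of -0.11. The median was 0.09 without TG 1, 0.02 without WT 1 and 0.07 with sample weights. The genotypes did not overlap at 5 of the 25, or 20%, beside 42.9% of all loci. *Col15a1*, *Col4a1* and *Col4a2* were lower in all 3 TG mice, and *Col12a1* and *Col23a1* were higher in all 3. The median standard error was 0.20 among collagens and 0.11 among all loci, on the log2 scale, so a given difference stood against a wider error among the collagens.

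**Figure D3:**
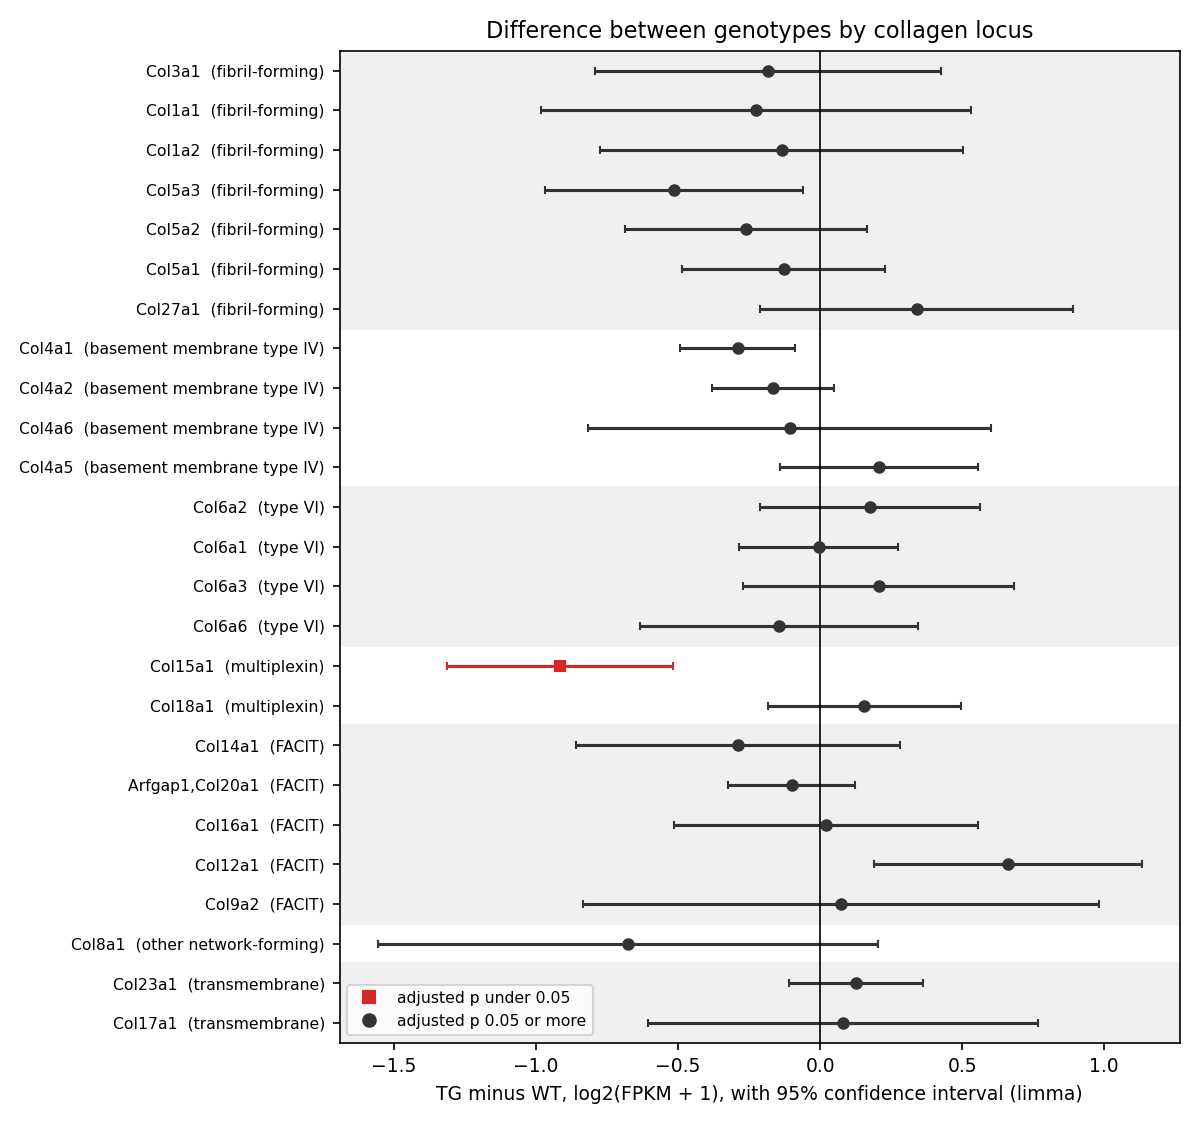
Difference between TG and WT in log2(FPKM + 1) for each of the 25 tested collagen loci, with the 95% confidence interval from limma. The single locus with an adjusted p under 0.05 is *Col15a1* (square) at -0.92, and *Col12a1* has the highest value at 0.66.

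The multiplexins contain type XV and type XVIII collagen, whose C-terminal ends are known as the sources of the fragments restin and endostatin. *Col15a1*, found at the basement membrane zone of fat cells, capillaries and muscle fibres, lies on the plus strand of chromosome 4 from 47208161 to 47313167 (GENCODE M21, GRCm38), where *Gm12426* overlaps it on the other strand and could share its reads. It had 49.6, 51.7 and 57.5 FPKM in TG 1, 2 and 3 and 76.8, 119 and 111 FPKM in WT 1, 2 and 3. The lowest WT mouse was above the highest TG mouse. The means were 52.9 ± 4.10 FPKM in TG and 102 ± 22.4 FPKM in WT (SD, n = 3 mice each), a ratio of 0.517, and the log2 difference was -0.92 (standard error 0.17, 95% interval -1.31 to -0.52, limma adjusted p = 0.0122). The exact permutation test of the FPKM gave p = 0.1, the lowest value possible with 3 mice per genotype. When single mice were removed the log2 difference stayed between -1.11 and -0.80, and the adjusted p between 0.00381 and 0.0489. Of 18 other settings 16 kept the call; the call was lost with a required ratio of 2-fold or with a threshold of 0.01.

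The other multiplexin, *Col18a1* on chromosome 10, did not differ beyond the spread between mice. It had 30.3, 20.8 and 28.0 FPKM in TG and 25.0, 23.7 and 21.4 FPKM in WT, with a log2 difference of 0.16 (standard error 0.14, 95% interval -0.18 to 0.50, adjusted p = 0.468). Within each library, *Col15a1* was at 1.63, 2.48 and 2.05 times the FPKM of *Col18a1* in TG and at 3.07, 5.02 and 5.21 times in WT. The same was done against *Col4a1*, a basement membrane chain. The ratio of *Col15a1* to *Col4a1* was 0.428, 0.429 and 0.442 in TG and 0.533, 0.797 and 0.716 in WT, so that neither ratio overlapped between genotypes, while 8 other ratios between collagen chains did. *Col15a1* is in both of the former and in none of the 8, so these gaps are not separate from its own.

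Markers of endothelial cells, fat cells and mural cells were measured in the same libraries. They are not all the cells that could make type XV collagen. Markers of fibroblasts, of which *Dpt* fell, and of skeletal muscle are given further on. Beside the counts below, 11.6% of all tested loci were higher and 7.03% lower. The 10 endothelial markers summed to 187 to 199 FPKM in TG and 186 to 195 FPKM in WT, with 2 of 10 higher (*Kdr* and *Emcn*) and 1 lower (*Cldn5*). The 8 fat cell markers summed to 28909 to 34257 FPKM in TG and 26260 to 33129 FPKM in WT, of which *Fabp4*, whose promoter drives the transgene, was the greater part. *Fabp4* itself was at 24561 to 29363 FPKM in TG and 19297 to 23539 FPKM in WT, higher in all TG mice but not called. The 7 without *Fabp4* summed to 4894, 5264 and 4348 FPKM in TG and to 9589, 8470 and 6963 FPKM in WT, lower in all TG mice. Of the 8, 2 fell, *Adipoq* with a log2 difference of -0.85 and *Retn* with -2.02. *Adipoq* was at 1279.2 to 1456.5 FPKM in TG and 2084.2 to 2911.3 FPKM in WT, and *Retn* at 614 to 1008 and 2254 to 3403 FPKM. *Plin1*, *Lep*, *Lipe*, *Pparg* and *Cidec* each overlapped between genotypes, with log2 differences from -0.32 to 0.05. None of the 8 mural cell markers was lower and 1 was higher (*Kcnj8*). The part of these cells in the *Col15a1* difference was not tested.

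**Figure D4:**
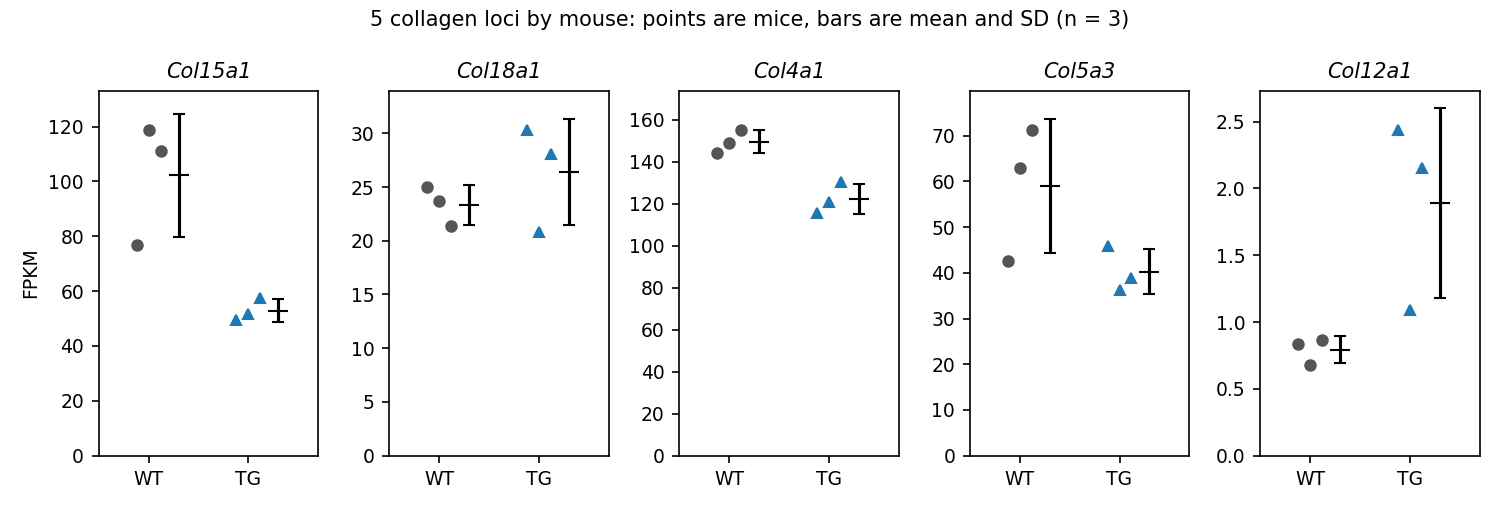
FPKM of 5 collagen loci in each mouse (points), with the mean and SD of each genotype (bars, n = 3), each on its own axis from 0. *Col15a1*, *Col4a1* and *Col12a1* do not overlap between genotypes, whereas *Col18a1* does, and WT 1 with 42.7 FPKM of *Col5a3* lies among the TG mice.

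Type IV collagen of most basement membranes is made of the chains encoded by *Col4a1* and *Col4a2*, which lie head to head on chromosome 8 with their annotated starts overlapping. *Col4a1* had 116, 121 and 130 FPKM in TG and 144, 149 and 155 FPKM in WT. All TG mice were below all WT mice. The means were 122 ± 7.28 and 150 ± 5.52 FPKM (SD, n = 3 each), a ratio of 0.817, with a log2 difference of -0.29 (standard error 0.09, adjusted p = 0.0565), just outside the threshold. With quantile normalization the difference was -0.49 and passed it. *Col4a2* had 107, 97.7 and 109 FPKM in TG and 110, 116 and 126 FPKM in WT. Its genotypes did not overlap either, but the gap was small and the log2 difference was -0.17 (standard error 0.09, adjusted p = 0.232). The libraries do not mark strand, so reads from the shared start cannot be assigned to 1 of the 2 genes. The ratio of the chains was 1.17 ± 0.077 in TG and 1.28 ± 0.041 in WT (SD, n = 3 each) and overlapped. The minor chains *Col4a5* and *Col4a6*, both on the X chromosome, were at 0.605 to 2.15 FPKM in all mice and did not pass the test, with log2 differences of 0.21 and -0.11.

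The fibril-forming class held 7 tested loci, and none passed the test; 6 were lower by value and 1 (*Col27a1*) was higher. *Col3a1*, the chain of type III collagen in the fine fibrils of soft tissue, had 297, 513 and 532 FPKM in TG and 600, 398 and 498 FPKM in WT. TG 1 was lowest and WT 1 highest, and among the other 4 mice both TG mice were above both WT mice. The log2 difference was -0.18 (standard error 0.26, 95% interval -0.79 to 0.43, adjusted p = 0.641), and it was 0.09 without TG 1. *Col1a1*, a chain of type I collagen, had 90.8, 192 and 164 FPKM in TG and 234, 131 and 150 FPKM in WT, with a log2 difference of -0.22 (standard error 0.32, 95% interval -0.98 to 0.53, adjusted p = 0.647). It was 0.10 without TG 1 and 0.02 without WT 1. *Col1a2*, its partner chain, had 93.9, 172 and 171 FPKM in TG and 194, 122 and 155 FPKM in WT, with TG 1 again lowest and WT 1 highest. The ratio of *Col1a1* to *Col1a2* was 1.02 ± 0.09 in TG and 1.08 ± 0.12 in WT (SD, n = 3 each). The interval for *Col1a2*, -0.77 to 0.50, covers a fall as well as a rise, so that a difference of either sign and moderate size was not detectable with this spread.

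Type V collagen controls the diameter of type I fibrils. Its chains *Col5a1* and *Col5a2* were at 22.5 to 42.5 FPKM in the 6 mice and had log2 differences of -0.13 and -0.26. *Col5a3* and, further on, *Col12a1* are described because their unadjusted p was under 0.05, a choice made after their values were seen. *Col5a3*, another type V chain, had 45.8, 36.2 and 38.8 FPKM in TG and 42.7, 62.9 and 71.3 FPKM in WT. The single overlap came from WT 1. The log2 difference was -0.51 (standard error 0.19, 95% interval -0.97 to -0.06, adjusted p = 0.104). It was -0.73 and passed the threshold without WT 1, and it also passed with sample weights, at -0.58. Of 12 fibroblast markers 1 passed the test, beside 18.6% of all tested loci. It was *Dpt*, which fell by 1.37 on the log2 scale. The 12 summed to 1444 to 1926 FPKM in TG and 2055 to 2296 FPKM in WT, without overlap, but the 11 without *Dpt* summed to 1260, 1677 and 1284 FPKM in TG and to 1839, 1477 and 1683 FPKM in WT, which overlap. Its most abundant gene, *Dcn*, was at 596 to 724 FPKM in TG and 728 to 974 FPKM in WT (adjusted p = 0.124), and none of the 12 was at 0. Their part in the collagen values was not tested.

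Type VI collagen had 4 tested loci and none passed the test. *Col6a2* had 122, 157 and 161 FPKM in TG and 117, 115 and 158 FPKM in WT, with a log2 difference of 0.18 (standard error 0.16, 95% interval -0.21 to 0.56, adjusted p = 0.472). *Col6a1* had 107, 135 and 126 FPKM in TG and 125, 111 and 132 FPKM in WT, with means of 122 ± 14.2 and 123 ± 10.8 FPKM (SD, n = 3 each) and a log2 difference of -0.01 (standard error 0.12, 95% interval -0.28 to 0.27, adjusted p = 0.977). *Col6a3*, the third chain of the heterotrimer, was at 28.7 to 48.9 FPKM, and *Col6a6*, an alternative chain, at 0.575 to 1.55 FPKM, with log2 differences of 0.21 and -0.14.

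Among the FACIT loci, *Col14a1*, the chain with the highest level of the class, had 10.8, 22.0 and 15.8 FPKM in TG and 20.6, 15.9 and 21.8 FPKM in WT (log2 difference -0.29, standard error 0.24, adjusted p = 0.419). *Col20a1* shares a row with its neighbour *Arfgap1*, and their reads cannot be told apart. The row had 13.7, 13.9 and 13.4 FPKM in TG and 12.9, 16.0 and 15.4 FPKM in WT (log2 difference -0.10, standard error 0.09, 95% interval -0.32 to 0.12, adjusted p = 0.473). *Col12a1*, whose product binds type I fibrils, had 2.44, 1.09 and 2.15 FPKM in TG and 0.837, 0.679 and 0.863 FPKM in WT. All TG mice were above all WT mice, and TG 2 was close to the WT range. The log2 difference was 0.66 (standard error 0.20, 95% interval 0.19 to 1.13, adjusted p = 0.0609), on a scale that understates differences at such low values; the ratio of the means was 2.39. It was 0.88 and passed the threshold without TG 2, and 0.69 and passed with sample weights. *Col16a1* (3.51 to 7.46 FPKM) and *Col9a2* (0.226 to 2.40 FPKM) had log2 differences of 0.02 and 0.07.

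The network-forming *Col8a1*, known from vessel walls and the cornea, had the widest error among the tested loci that were lower by value. It had 0.659, 2.35 and 1.21 FPKM in TG and 5.14, 2.17 and 1.57 FPKM in WT, and WT 1 alone was above the TG range. The log2 difference was -0.68 (standard error 0.37, 95% interval -1.56 to 0.20, adjusted p = 0.234). Of the transmembrane collagens, *Col23a1* had 1.69, 1.75 and 1.69 FPKM in TG and 1.58, 1.42 and 1.45 FPKM in WT. The genotypes did not overlap, yet the log2 difference was only 0.13 (standard error 0.10, adjusted p = 0.397). *Col17a1*, which anchors epithelial cells to the tissue beneath them, had 0.323, 1.08 and 1.94 FPKM in TG and 1.23, 0.857 and 0.649 FPKM in WT (log2 difference 0.08, standard error 0.29, adjusted p = 0.865).

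The remaining 18 loci had a mean of at most 1 FPKM in both genotypes and were not tested. The highest value in any mouse was 1.71 for *Col9a3*, 1.60 for *Col7a1* (a row shared with *Mir711*), 1.48 for *Col6a5*, 1.21 for *Col13a1* and 1.15 for *Col6a4*. It was 0.854 for *Col28a1*, 0.731 for *Col11a2*, 0.369 for *Col4a4* and 0.353 for *Col4a3*. The other 9 were lower still, from 0.259 (*Col11a1*) and 0.190 (*Col9a1*) through *Col8a2*, *Col10a1*, *Col25a1*, *Col22a1*, *Col24a1* and *Col2a1* to 0.0104 (*Col19a1*). *Col2a1*, the main chain of cartilage, was above 0 in TG 3 alone, and *Col10a1*, the collagen of growth plate cartilage, in WT 1 and WT 2 alone. Of 8 cartilage markers 2 passed the filter and 0 were called (limma): *Sox9*, which other cells also express, at 1.37 to 3.80 FPKM and *Cnmd* at 0.484 to 1.27 FPKM. *Comp* reached 0.535 FPKM, *Acan* reached 0.00521 FPKM and *Matn3* was listed at 0 in all mice, and the 8 summed to 3.22 to 3.74 FPKM in TG and 2.06 to 4.96 FPKM in WT. Among the untested loci, *Col6a5* did not overlap between genotypes, with 0.269, 0.230 and 0.266 FPKM in TG and 0.547, 0.536 and 1.48 FPKM in WT. *Col4a3* did not overlap in the other direction, with 0.353, 0.295 and 0.275 FPKM in TG and 0.179, 0.169 and 0.217 FPKM in WT. The exact permutation test gave p = 0.1 for each.

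Several collagens shared an order of mice that cut across genotype, which was noticed after the values were seen and carries no test. TG 3 and WT 1 were the 2 highest mice at 11 of the 38 collagen loci above 0 in all mice, or 28.9%, beside 4.53% of all such loci. The 11 run from *Col3a1*, the highest collagen of all, through *Col16a1* to *Col4a5*, *Col4a6*, *Col7a1*, *Col9a2*, *Col9a3*, *Col11a1*, *Col13a1*, *Col17a1* and *Col25a1* at low levels. Only *Col7a1* and *Col17a1* of these are known mainly from epithelial attachment. *Col7a1* had 0.151, 0.406 and 1.60 FPKM in TG and 0.597, 0.173 and 0.277 FPKM in WT. The 10 epithelial markers summed to 142, 202 and 284 FPKM in TG 1, 2 and 3 and to 325, 272 and 236 FPKM in WT 1, 2 and 3, and TG 3 and WT 1 were the 2 highest mice at 5 of the 10. None of the 10 was at 0 and 0 passed the test in either direction (limma), with 3 lower at an unadjusted p under 0.05. *Krt19*, *Krt18* and *Krt8* were the most abundant, with *Krt19* at 44.3 to 97.8 FPKM. TG 1 was the lowest mouse at 15 of the 25 tested collagens, or 60%, beside 25.5% of all tested loci, and also at 8 of 10 epithelial and 4 of 12 fibroblast markers. Without TG 3 and WT 1, a setting chosen after seeing the data, *Col15a1* had a log2 difference of -1.17 (adjusted p = 0.0241), while *Col9a2*, *Col16a1* and *Col17a1* turned to -0.08, -0.09 and -0.08. The part of epithelial cells in these values was not tested.

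**Figure D5:**
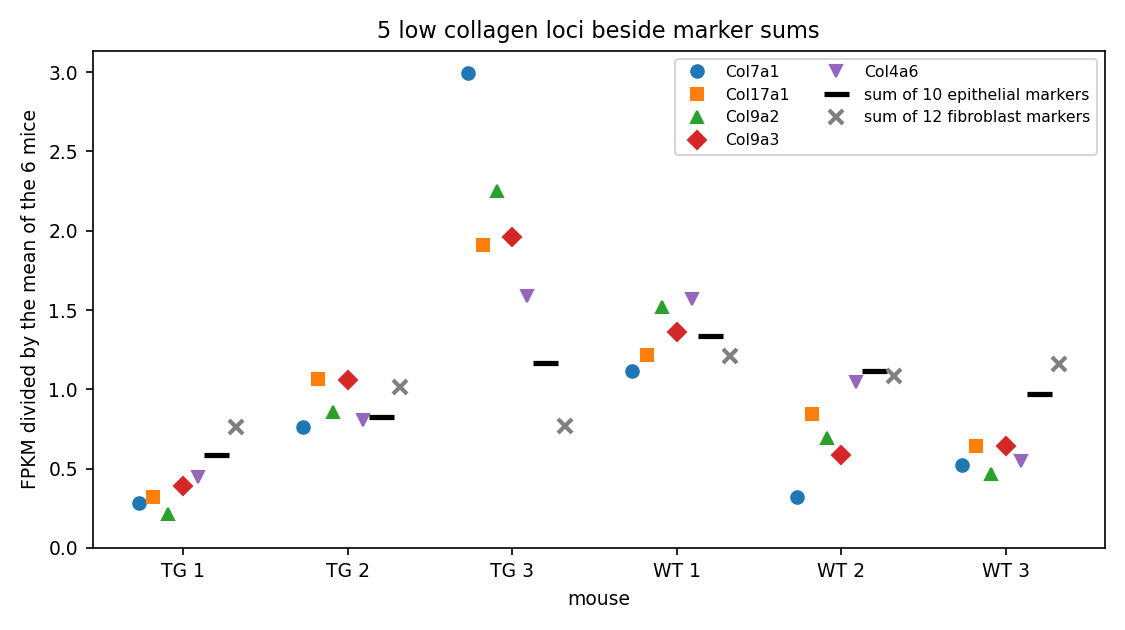
FPKM of 5 low collagen loci, chosen after their values were seen, in each mouse, divided by the mean of the 6 mice, beside the sum of 10 epithelial markers (bars) and of 12 fibroblast markers (crosses) on the same scale. All 5 loci are highest in TG 3, second highest in WT 1 and lowest in TG 1, where *Col7a1* is at 0.151 FPKM; the epithelial sum is 142 FPKM in TG 1 and 284 and 325 FPKM in TG 3 and WT 1.

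Other cell types were checked by their markers. For the counts that follow, the shares over all tested loci were 11.6% higher and 7.03% lower. Of 8 macrophage markers 5 were lower and none higher. Their sums did not overlap, 607 to 888 FPKM in TG and 1097 to 1502 FPKM in WT. Skeletal muscle markers were highest in TG 2 with a sum of 1139 FPKM, beside 249 to 437 FPKM in the other mice. Of the 10, 1 was called higher (*Myl1*), and 9 were higher by value, with a median log2 difference of 2.12. *Myl1* was at 68.5 to 118 FPKM in TG and 41.6 to 54.9 FPKM in WT, with 41.6 FPKM in WT 1. The sums include the *Tnnt3* row, which is shared with *Lsp1*, and the reads of the pair cannot be told apart. That row held 200 FPKM in WT 1, where *Ckm* was at 0.0657 FPKM and *Myh4* at 0. *Ckm* was at 14.0 to 119 FPKM in TG and 0.0657 to 23.0 FPKM in WT, which overlap. Of 6 tested Schwann cell markers 2 were higher (*S100b* and *Mbp*) and none lower. The list summed to 93.5 to 131 FPKM in TG and 28.0 to 38.5 FPKM in WT. *S100b* alone was at 37.4 to 93.4 FPKM in TG and 2.31 to 3.49 FPKM in WT. It thus made up much of the TG sums, and no sum was taken without it. By value 5 of the 6 were higher, while *Sox10* overlapped between genotypes, with a log2 difference of -0.27. The part of these cells in the collagen values was not tested.

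Collagen chains are hydroxylated, folded and glycosylated in the endoplasmic reticulum, secreted, trimmed of their propeptides and crosslinked outside the cell. A list of 38 genes for these steps had 37 in the table and 32 tested. Of these, 4 fell and 0 rose at an adjusted p under 0.05 (limma). This is 12.5% called, beside 18.6% of all loci in either direction and 7.03% lower. The median log2 difference was -0.10, and 8 were higher by value. *P4hb*, a subunit of prolyl 4-hydroxylase and a protein disulfide isomerase, had 131, 147 and 143 FPKM in TG and 191, 184 and 185 FPKM in WT (log2 difference -0.41, standard error 0.09, adjusted p = 0.0192). *Plod2*, the lysyl hydroxylase of collagen telopeptides, had 8.84, 11.5 and 10.3 FPKM in TG and 26.2, 14.3 and 18.9 FPKM in WT (log2 difference -0.86, standard error 0.21, adjusted p = 0.0306). Its symbol is on 2 loci, and these values are from the locus of higher mean. None of the TG mice reached a WT mouse at *P4hb* or at this locus of *Plod2*.

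The other falls were in propeptide removal. *Adamts2*, which removes the N-propeptide of fibrillar procollagens, had 17.6, 24.9 and 18.5 FPKM in TG and 34.5, 34.0 and 30.3 FPKM in WT (log2 difference -0.68, standard error 0.14, adjusted p = 0.0169). *Pcolce2*, an enhancer of the C-proteinase, had 24.6, 32.8 and 20.9 FPKM in TG and 46.8, 38.5 and 38.1 FPKM in WT (log2 difference -0.65, standard error 0.17, adjusted p = 0.0377). By step, 1 of 3 prolyl 4-hydroxylase genes, 1 of 3 lysyl hydroxylase genes and 2 of 5 genes of propeptide removal were lower. None of the 6 genes of prolyl 3-hydroxylation, 5 of folding, 2 of glycosylation, 4 of secretion and 4 of crosslinking passed the test. The crosslinking oxidases *Lox* and *Loxl1* to *Loxl3* had log2 differences between -0.17 and -0.05. The value of *Loxl3* is that of a row shared with *Aup1* and *Dqx1*, whose reads cannot be told apart from its own. *Plod3*, in a row shared with *Mir702*, had 214 FPKM in WT 3 and 25.0 to 34.8 FPKM in the other mice, and it was not called, but without WT 3 it was called lower. Of the 4 calls, none was kept without TG 3 or without WT 1, *Plod2* alone was kept without WT 2, *Adamts2* alone without WT 3, *Adamts2* and *P4hb* without TG 1, and all 4 without TG 2, where *P4ha2* was called lower in addition.

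Of 10 collagen receptor genes 7 were tested, and 1 was higher and 0 lower, beside 11.6% and 7.03% of all tested loci. The higher row, *Itga1*, encodes the alpha-1 integrin that binds type IV and type I collagen, and it had 25.1, 23.9 and 24.3 FPKM in TG and 15.9, 16.3 and 15.4 FPKM in WT (log2 difference 0.59, standard error 0.07, adjusted p = 0.00226). The row is shared with *Pelo*, which lies within *Itga1*, and their reads cannot be told apart. Its partner *Itgb1* was at 78.4 to 88.1 FPKM with a log2 difference near 0. The discoidin domain receptors *Ddr1* and *Ddr2* had log2 differences of -0.41 and -0.35 and did not pass the test, and the platelet receptor *Gp6* was listed at 0.

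The sequence before the start of the collagen genes was read from RefSeq (GRCm38.p6), which held an entry for 35 of the 43 symbols and 21 of the 25 tested. The 250 bases before each start were searched on both strands for the core that many homeodomain proteins bind (TAAT), the box named CCAAT, the GC box (spelled GGGCGG) and a form of the TATA box (spelled TATAA, whose reverse can overlap it). The homeodomain core was found in 5 of the 21 tested members and in 54.9% of all 32851 promoters. The GC box was found in 14 of the 21 and in 32.7% of all promoters, the CCAAT box in 8 of the 21 and in 33.9%, and the TATA box in 3 of the 21 and in 22.8%. The median GC content was 59.0% for the promoter entries of all collagens, tested or not, and 52.4% for all promoters. The motif shares were not matched for it. The windows of *Col4a1* and *Col4a2* lie within annotated exons and are not shown. That of *Col15a1* lies before the GENCODE start of the gene but within its locus as deposited, and it is not shown either. It holds none of the 4 motifs. The 3 stretches below, from the collagen with the highest level, from the type V chain *Col5a3* and from *Col8a1*, show the range of composition, with each motif match, or its reverse complement, in capitals. *Col3a1* (chr1:45311288-45311537, plus strand) has matches of the homeodomain core and the TATA box but not of the other motifs, *Col5a3* (chr9:20815118-20815317, minus strand, outside the annotated gene) has a match of the CCAAT box and of the GC box, and *Col8a1* (chr16:57754738-57754987, minus strand) has 4 GC box matches. A match is a run of letters and was not tested for binding.
Col3a1: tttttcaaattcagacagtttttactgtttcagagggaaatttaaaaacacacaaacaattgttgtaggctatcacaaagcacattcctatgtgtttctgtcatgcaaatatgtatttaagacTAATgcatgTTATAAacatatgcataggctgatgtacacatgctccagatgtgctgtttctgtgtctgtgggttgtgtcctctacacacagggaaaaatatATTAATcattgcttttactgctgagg
Col5a3: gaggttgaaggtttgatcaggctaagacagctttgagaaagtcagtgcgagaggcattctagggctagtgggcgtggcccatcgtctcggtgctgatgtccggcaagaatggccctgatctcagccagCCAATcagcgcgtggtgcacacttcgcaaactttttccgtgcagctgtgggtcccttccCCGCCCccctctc
Col8a1: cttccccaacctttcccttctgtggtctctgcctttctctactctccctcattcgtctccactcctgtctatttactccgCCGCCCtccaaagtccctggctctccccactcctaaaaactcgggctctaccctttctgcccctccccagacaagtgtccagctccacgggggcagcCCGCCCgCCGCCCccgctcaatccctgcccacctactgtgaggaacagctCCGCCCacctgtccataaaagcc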

How the data were processed

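RNA of iWAT from 3 TG and 3 WT mice was made into TruSeq libraries without strand information and sequenced as single-end reads of 100 bases. Per the labels and the study's methods, the authors used CASAVA 1.8.2, mapped reads to mm10 with TopHat2 2.0.9 and Bowtie2 2.1.0, and quantified genes with Cufflinks 2.2.1. The annotation is not given in the sources used here. The authors deposited FPKM for each locus and mouse. FPKM carry no read totals, so no count test, counting interval or floor was computed, and read depth limits the low values.

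From these values log2(FPKM + 1) was computed and the genotypes were compared by the two-sided moderated test of limma 3.58.1 (R 4.3.3; lmFit, then eBayes with its trend option, without covariates) at the 11692 loci whose mean was over 1 FPKM in TG or WT, as in the study's methods, with Benjamini-Hochberg adjustment over all of them. Differences are on that scale, which understates changes at low FPKM. Single values were tested with an exact two-sided permutation test over 20 arrangements. The procedure was run on simulated data with independent noise and with changes planted only at loci of higher level. Changes at low loci and a spread shared between loci were not covered. Loci with several symbols were kept as listed. A list gene found at several loci was read from the locus of highest mean FPKM. Gene positions and overlaps came from GENCODE M21 (GRCm38), older symbols and upstream sequences from RefSeq, and figures from matplotlib 3.10.9 in Python 3.11.15.

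Collagens were described by class: all tested loci are named, and each mouse's values and full statistics are given for those with an adjusted p under 0.05 and for the 2 of highest mean FPKM in each class. Of the synthesis list up to 4 rises and 4 falls past the threshold are given, and of the marker lists up to 3 loci of highest mean FPKM, or those past the threshold. The collagen genes, the lists and the tests were chosen with earlier results of these data known. Replicate numbers of the labels number different mice and, as deviations from the genotype means correlated at 0.01 to 0.07, do not pair them. No 2 libraries shared more than 0.111% of their values. Alternatives were another pseudocount, other filters, normalizations and variance models, the replicate block, each mouse left out and stricter calls.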

Additional observations from a re-analysis of the deposited data

How the results depend on the processing

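There were 18 other settings, or 17 for loci that a filter at 5 FPKM left out. Of the 25 tested collagens, 12 kept their direction and their side of the threshold in every setting that tested them. Another 9 turned sign in at least 1, none of which passed the threshold there or in the reported test. The count of loci higher among all loci (1352) was 779 to 1277 with 1 mouse left out, 569 at an adjusted p under 0.01, 413 with a 2-fold ratio in addition and 391 without TG 3 and WT 1, and the count lower (822) was 327 to 885, 199, 204 and 125. Of collagens, 0 to 1 were higher and 1 to 2 lower with 1 mouse left out, 1 was higher and 2 were lower with sample weights, 2 were lower with quantile normalization, and 0 were lower at an adjusted p under 0.01 or with a 2-fold ratio. Of the synthesis list (4 lower), 0 to 5 were lower with 1 mouse left out, 7 with quantile normalization, 2 without a filter, and 0 at an adjusted p under 0.01, with a 2-fold ratio or without TG 3 and WT 1, and 1 was higher with sample weights. With the replicate number as a block, which does not pair these mice, 1230 loci were higher and 656 lower. *Col15a1* stayed the 1 collagen called, and 2 of the synthesis list were lower. None of the TG mice correlated best with the WT mouse of its own number. With sample weights the log2 difference turned to 0.0488 for *Col3a1*, 0.0651 for *Col6a1*, 0.0015 for *Col1a1*, 0.10 for *Col1a2*, 0.0121 for *Col6a6* and 0.10 for *Col4a6*. A pseudocount of 0.1 gave -0.0214 for *Col9a2*, and leaving out TG 3 and WT 1 gave -0.0783 for *Col17a1*, -0.0754 for *Col9a2* and -0.0879 for *Col16a1*. With 1 mouse left out the log2 difference ran from -0.34 to 0.0867 for *Col3a1*, -0.0777 to 0.0885 for *Col6a1*, -0.44 to 0.10 for *Col1a1*, -0.20 to 0.38 for *Col17a1*, -0.31 to 0.43 for *Col9a2*, -0.20 to 0.26 for *Col16a1*, -0.30 to 0.15 for *Col1a2*, -0.29 to 0.0384 for *Col6a6* and -0.37 to 0.12 for *Col4a6*. The cause was not tested for any of these.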
